A study of Mus musculus with 20 samples.

Results

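Chemokine ligands were read from the count table of endothelial RiboTag libraries of mouse breast tumors as 41 genes of 55866. They were the rows named Ccl or Cxcl with a number (Ccl numbers with at most 1 further letter), together with Cx3cl1, Xcl1, Ppbp and Pf4, which gave 24 CC ligands, 15 CXC ligands, Cx3cl1 and Xcl1. The rule used gene names only and no measured value.

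All groups were female C57BL/6J mice of the genotype Rpl22HA/HA x Cdh5CreERT2, in which tamoxifen lets cells with an active Cdh5 (VE-cadherin) promoter, that is, vascular and lymphatic endothelium, carry Rpl22 with a hemagglutinin (HA) epitope in their ribosomes. The tamoxifen dose was 75 mg/kg on 5 days, begun in mice 3 weeks old, and 8-week-old mice received Py8119, a mouse mammary carcinoma line, in the mammary fat pad. Mice received 25 mg/kg of 6-3-A6, an antibody against the receptor Notch4, or control mouse IgG intravenously 2 times a week for 10 days, from a tumor volume of 30 mm3 in the sample labels and 50 mm3 in the design text. From each of 5 control IgG tumors and 5 6-3-A6 tumors, RNA of the homogenate (input) and RNA bound to tagged ribosomes (HA-immunoprecipitate, IP) were sequenced, which gave 20 libraries. The study compared 6-3-A6 with control IgG in 6 IP libraries, control IgG 2, 4 and 5 and 6-3-A6 1, 3 and 4, after it had left out the other 4 as outliers of a principal component analysis, that is, by their expression values. The implanted cells carry no tag, and hosts keep their own macrophages, lymphocytes and fibroblasts, which are untagged too.

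Chemokines are small secreted proteins that bind G protein-coupled receptors on leukocytes and steer them out of the blood and through tissue. Endothelial cells take part in this in several ways, since they make some chemokines, display those made by neighboring cells on heparan sulfate at the vessel lumen, and carry atypical receptors that transport or remove chemokines without signaling through G proteins. In tumors, much of the chemokine RNA is known to come from macrophages and other myeloid cells, from fibroblasts and from the carcinoma cells.

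Totals on genes were between 11881214 and 26728205 counts per library. Levels are given as CPM, counts scaled to a common library total after adjustment by TMM factors, and the 17 endothelial markers summed to between 203 and 320.5 CPM in input and to between 1251 and 7091 CPM in IP, with all 17 called higher in IP. Macrophage markers remained at a sum of 2031 to 5939 CPM in IP, against 3775 to 9141 CPM in input. Macrophage RNA was thus still measured in IP, and in bulk samples such as these fewer cells of a type and less RNA per cell cannot be told apart. The input library of 6-3-A6 tumor 4 had the lowest TMM factor, 0.680, and the endothelial score, the mean log2 CPM of endothelial markers minus the mean over macrophage, fibroblast and epithelial markers, was lowest among IP libraries in control IgG tumor 4 (0.0099) and 6-3-A6 tumor 2 (0.26). In 6-3-A6 tumor 5, the summed chemokine level was 3328 CPM in input and 2415 CPM in IP, above every other library of the same fraction. The description lines of the 6-3-A6 libraries name the opposite fraction, and groups were taken from the titles.

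Of the 41 chemokine genes, 30 had counts and 11 were at 0 in every library. All 9 genes that lie wholly within another gene of the opposite strand were among the 11, and they include some of the best known members of the family. Cxcl10 and Cxcl11, which like Cxcl9 are induced by interferon-gamma and bind Cxcr3, lie within Art3, a row with 2377 counts over the 20 libraries. Ccl2, the main monocyte attractant, lies within Gm17268 (15 counts), Ccl6 within E230016K23Rik (3882 counts), and Ccl19 and Ccl21a, ligands of Ccr7 on dendritic cells and naive T cells, within 4930578G10Rik (92 counts). The other 3 were Xcl1 within Gm20743, Ccl21d within Gm13307 and Cxcl17 within 4732471J01Rik. Ccl21b and Ccl27b, which have near-identical copies elsewhere in the genome, were also at 0. Since 9 of 9 enclosed genes were at 0, a count of 0 cannot be read as absence of Ccl2, Cxcl10 or the others, and how reads on more than 1 gene were counted is not given in the sources used here.

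**Figure D1:**
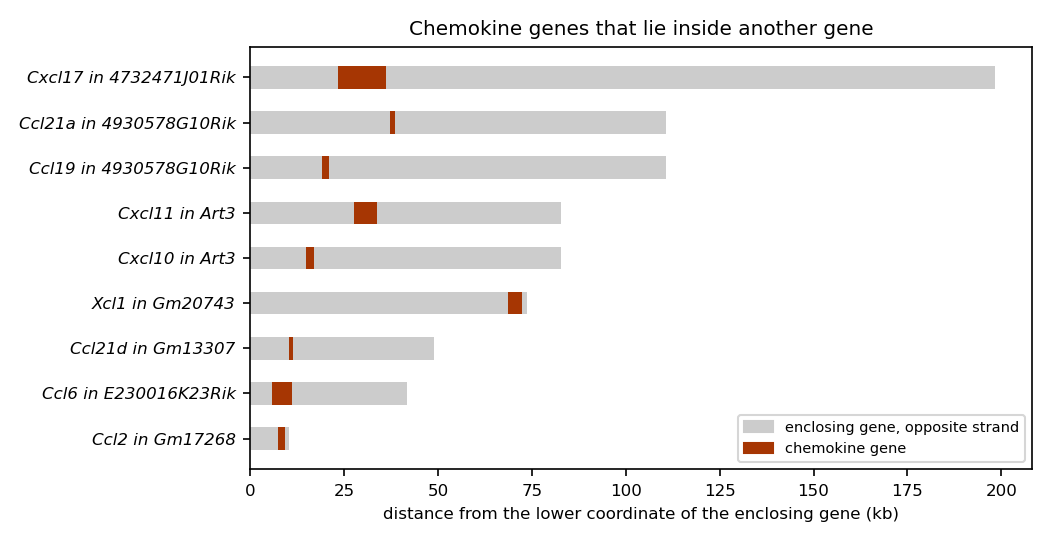
Bars show, for the 9 chemokine genes that lie wholly within another gene, the enclosing gene (gray) and the chemokine gene (brown) at their distance in kb from the lower coordinate of the enclosing gene. All 9 had 0 counts in every one of the 20 libraries.

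A further 6 genes were at too few counts for the comparison of IP with input: Ccl1, Ccl20, Ccl26, Ccl28, Cxcl5 and Cxcl15. The 24 that were tested had counts in 18 to 20 libraries and are the ligands described here. Without correction for gene length, most counts fell on 6 ligands in each fraction. Their mean levels in input were Ccl9 at 421 CPM ± 95.1 (SD, n = 10 tumors), Cxcl9 at 363 ± 309, Cxcl12 at 324 ± 62.5, Cx3cl1 at 204 ± 69.8, Cxcl16 at 183 ± 63.6 and Ccl7 at 94.3 ± 62.2. In IP they were Cxcl9 at 479 CPM ± 367, which was 35.5% of the summed chemokine CPM, Cxcl12 at 233 ± 55.9, Ccl9 at 181 ± 57.1, Cxcl16 at 115 ± 36.6, Cx3cl1 at 104 ± 36.8 and Ccl7 at 47.6 ± 32.4.

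Counts per kb of exon compare genes only roughly here, since the count table lists each gene by its whole span. That span is 10419 bases for Cx3cl1, whose exons have 3930, so that reads on introns may be counted. On this scale Ccl12 was highest in input with a mean of 142 CPM per kb. Next were Ccl9 with 138, Cxcl9 with 120.3, Ccl7 with 118, Ccl8 with 116 and Pf4 with 107. In IP, Cxcl9 had a mean of 159 CPM per kb and the next ligands were Ccl8 with 61.8, Ccl9 with 59.6, Ccl7 with 59.4, Pf4 with 57.9 and Ccl12 with 53.8. Neighbors among these ligands differed by less than the SD between tumors in both fractions, Cxcl9 in IP included, since its SD was 366.9 CPM around a mean of 478.7 CPM.

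**Figure D2:**
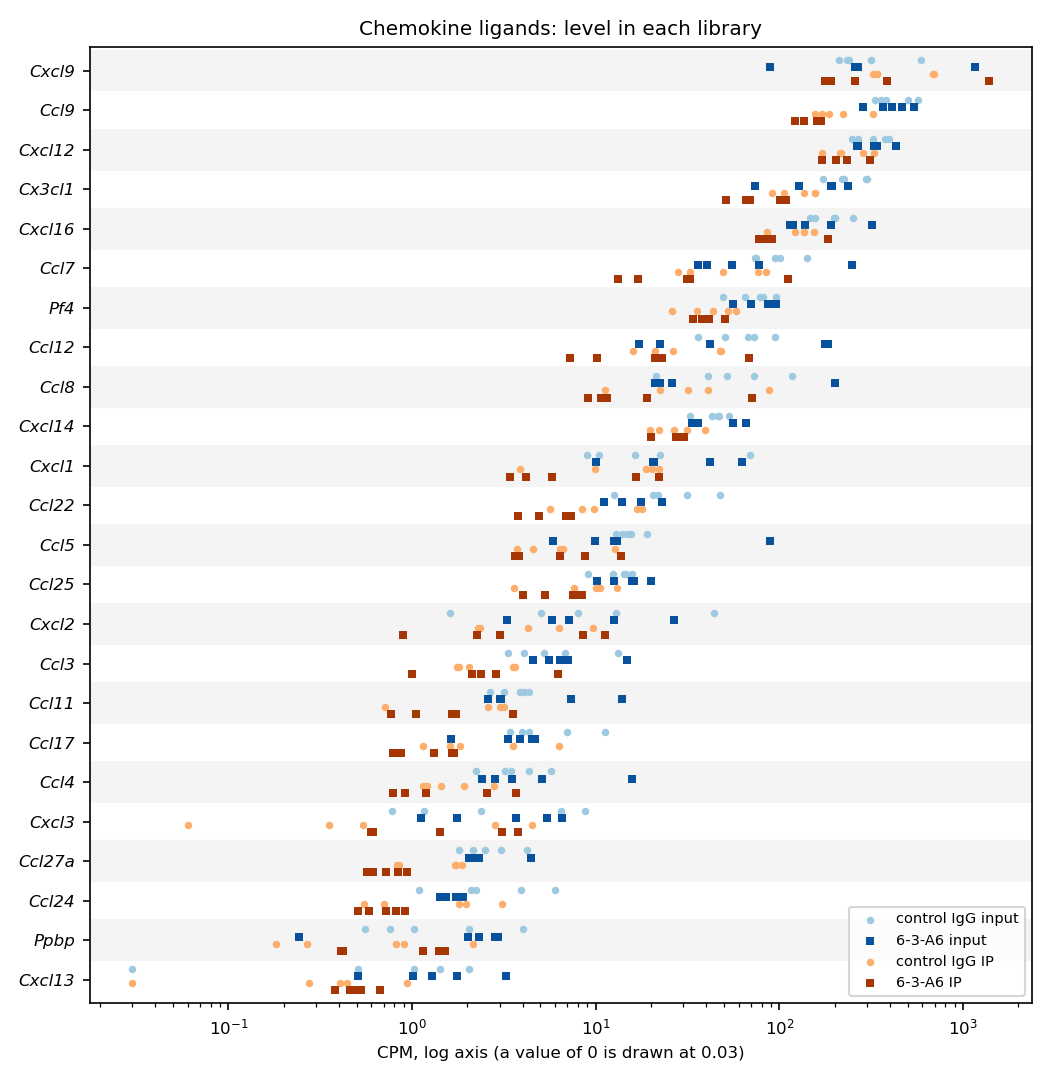
CPM in each of the 20 libraries (points, log axis) for the 24 tested chemokine ligands, with 5 libraries in each of the 4 groups genes ordered by their mean and values of 0 drawn at the left edge. For most ligands the IP points (orange and brown) lie to the left of the input points (blue), while those of Cxcl9 lie among them, and single 6-3-A6 points far to the right for Ccl7, Ccl8 and Ccl5 are tumor 5.

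The promoters of the ligands on which these comparisons turn were searched for motifs of the pathways listed here, and 4 are shown, of Cxcl9, Ccl22, Cxcl12 and Cx3cl1. They are printed from 250 bases before the gene start (RefSeq, GRCm38.p6), with matches on either strand in capitals. The first motif, a form of the NF-kappaB site, was GGGA, any 4 bases and CC, and the second, a form of the interferon response element, was GAAA, any 2 bases and GAAA. The windows are chr5:92328080-92328329 on the minus strand for Cxcl9, chr8:94745434-94745683 on the plus strand for Ccl22, chr6:117168285-117168534 on the plus strand for Cxcl12 and chr8:94771930-94772179 on the plus strand for Cx3cl1.
Cxcl9: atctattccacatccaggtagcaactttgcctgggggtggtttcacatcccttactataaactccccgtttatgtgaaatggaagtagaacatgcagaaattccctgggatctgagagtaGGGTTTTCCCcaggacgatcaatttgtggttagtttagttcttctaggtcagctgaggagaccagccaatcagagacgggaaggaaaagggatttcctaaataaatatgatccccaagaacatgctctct
Ccl22: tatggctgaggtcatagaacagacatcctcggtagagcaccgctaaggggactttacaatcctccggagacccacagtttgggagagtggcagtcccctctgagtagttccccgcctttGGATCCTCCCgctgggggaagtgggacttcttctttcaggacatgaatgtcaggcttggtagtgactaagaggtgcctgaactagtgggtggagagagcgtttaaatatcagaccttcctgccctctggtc
Cxcl12: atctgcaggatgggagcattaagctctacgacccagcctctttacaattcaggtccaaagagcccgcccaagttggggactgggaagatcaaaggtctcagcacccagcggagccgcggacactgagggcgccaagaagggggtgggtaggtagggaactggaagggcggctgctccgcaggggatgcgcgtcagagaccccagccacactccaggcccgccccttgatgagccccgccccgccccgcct
Cx3cl1: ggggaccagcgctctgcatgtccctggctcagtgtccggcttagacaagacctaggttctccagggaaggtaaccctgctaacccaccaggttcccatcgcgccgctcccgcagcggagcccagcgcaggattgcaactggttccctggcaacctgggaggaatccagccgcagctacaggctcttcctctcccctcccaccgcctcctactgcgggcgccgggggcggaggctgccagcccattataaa
Cxcl9 and Ccl22 each held 1 match to the first motif, on the strand opposite to the one printed, 130 and 131 bases before the start as counted from the first base of the match, and Cxcl12 and Cx3cl1 held none of either. RefSeq promoters were found for 30 of the 41 genes, and 12 of them (Ccl1, Ccl19, Ccl20, Ccl22, Ccl27a, Ccl27b, Cxcl1, Cxcl2, Cxcl3, Cxcl9, Cxcl10 and Cxcl13), 40.0%, had the first motif in at least 1 promoter, where 17.6% of all 32851 promoters had it. The second motif was in promoters of Ccl19, Cxcl10 and Cxcl14, 10.0% of the genes, against 2.98% of all promoters. Genes with several promoters had several chances of a match, and a match is letters only and no evidence of binding.

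The comparison of IP with input asks which chemokine messages were higher, or lower, in RNA enriched for tagged ribosomes than in the whole tumor. No chemokine ligand was called higher in IP and 20 of 24 were called lower, from -0.48 for Cxcl12 to -1.51 for Ccl5 as log2 fold changes (edgeR quasi-likelihood test, Benjamini-Hochberg adjusted p under 0.05). An unadjusted p under 0.05 was found for 21 ligands, and for 49.9% of all genes tested. DESeq2 and limma voom called 0 higher as well. The 20 were 83.3% of the tested ligands, where 21.1% of all 14095 genes tested were called lower and 19.7% higher. The count called lower was 17 without 6-3-A6 tumors 4 and 5, and 17 without control IgG tumor 4 and 6-3-A6 tumor 2, where 40.95% and 36.5% of all genes were called in either direction, against 40.8% over all tumors. Only Cxcl9 had a positive difference, of 0.41 on the log2 scale, which did not pass the test. The median log2 fold change of the ligands was -1.13, against -0.06 over all genes tested. In the same comparison the median was 4.52 for the 17 endothelial markers, -0.65 for 13 macrophage markers with 8 called lower, -1.05 for 7 tested lymphoid markers with 5 called lower, and -1.19 for 6 tested neutrophil markers with 2 called lower. Of 7 dendritic cell markers 4 were called lower and 2 higher, and of 10 fibroblast markers 4 were called lower, at medians of -0.77 and -0.62. Among the lymphoid markers Ms4a1, a B cell gene, was at 0 in every library. The part of these cell types in the fall of the ligands was not tested.

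Input and IP came from the same tumors, and with the tumor as a block the call changed for 4 ligands, while the share of all genes called in either direction rose from 40.8% to 51.6%. Ccl8 (log2 fold change -0.89, adjusted p = 0.000225), Ppbp (-1.01, adjusted p = 0.00442) and Cxcl3 (-1.30, adjusted p = 0.000179) were then called lower too, which made 23, and Cxcl9 was called higher (0.43, adjusted p = 0.0345). The IP and input libraries overlapped in level for every ligand, where 0.468% of all genes tested were lower and 4.43% higher without overlap. Within tumors the direction was more uniform. Of the 24 ligands, 15 were lower in IP in all 10 tumors and 23 in at least 8 of the 10, on log2 CPM with a prior count of 2. The shares of all genes tested with such directions were not computed.

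**Figure D3:**
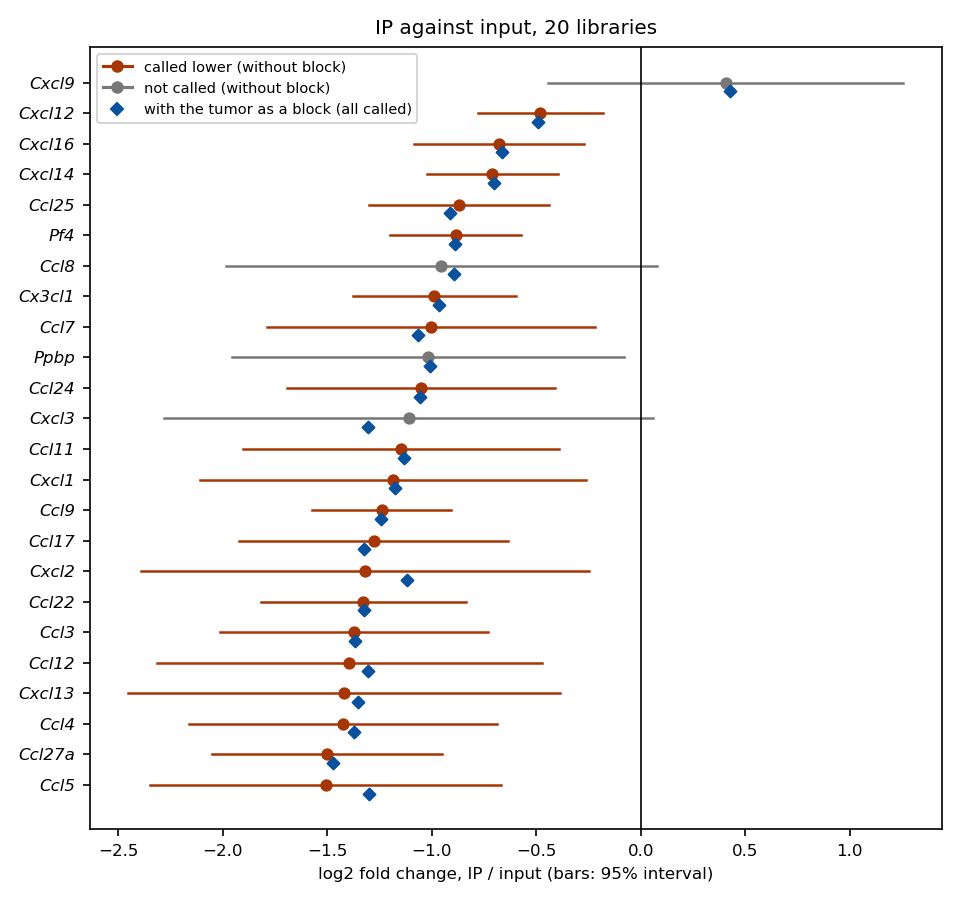
Log2 fold change of IP over input for the 24 tested ligands (circles, with 95% intervals) and the estimate with the tumor as a block (diamonds, all past the threshold). The 20 brown circles are called lower, the 4 gray ones are not called, and Cxcl9 alone lies to the right of 0.

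Cxcl9, which attracts activated T and NK cells through Cxcr3, is given in full because it stood apart, a choice made after its values were seen. In input, Cxcl9 was at 210.3, 234, 239.8, 313 and 592 CPM in control IgG tumors 1 to 5 and at 89.1, 257, 262, 268 and 1164 CPM in 6-3-A6 tumors 1 to 5. The IP values of these tumors were 325, 338, 687, 338 and 699 CPM and 176, 192, 385, 259 and 1387 CPM. The groups overlapped widely, with both 6-3-A6 tumor 5 libraries and both control IgG tumor 5 libraries high and the 6-3-A6 tumor 1 libraries low. Within tumors Cxcl9 was higher in IP in 8 of 10, and lower in 6-3-A6 tumors 2 and 4. The difference was a log2 fold change of 0.41 (SE 0.41, adjusted p = 0.441), and a log2 fold change of 0.43 (SE 0.16, adjusted p = 0.0345) with the tumor as a block. Leaving out single tumors or changing the test gave log2 fold changes between 0.28 and 0.53. Cxcl9 is induced by interferon-gamma, and of 8 genes of that pathway 3 were called higher in IP and 2 lower. The largest changes among them were those of Ifng itself (log2 fold change -1.34, adjusted p = 0.0241), the kinase Jak1 (log2 fold change 1.18, adjusted p = 3.54e-06) and the feedback inhibitor Socs1 (log2 fold change -1.03, adjusted p = 0.0140).

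**Figure D4:**
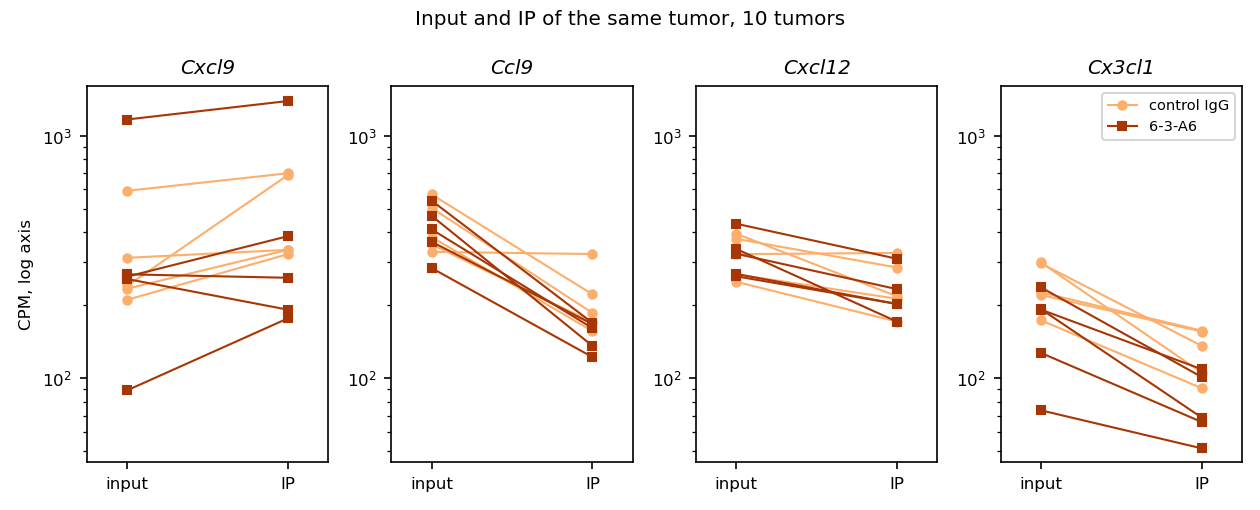
CPM (log axis) of 4 abundant ligands in the input and the IP of each of the 10 tumors, joined by a line per tumor. The lines of Cxcl9 rise in 8 of 10 tumors, those of Ccl9 and Cx3cl1 fall in all 10 and those of Cxcl12 fall in 9.

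The homeostatic ligands include the smallest falls. All 5 that were tested of 13 in this group were called lower, with a median log2 fold change of -0.87. Cxcl12, the ligand of Cxcr4 that retains leukocytes and progenitors in niches and is made by stromal and endothelial cells, fell least. In input, Cxcl12 was at 394, 268, 375, 324 and 249.7 CPM in control IgG tumors 1 to 5 and at 433, 341, 326, 269 and 263 CPM in 6-3-A6 tumors 1 to 5. Their IP libraries had 217, 213, 286, 328 and 171 CPM and 311, 171, 233, 202 and 202 CPM. The ranges overlapped, and control IgG tumor 4 was the single tumor in which IP was the higher fraction. The test gave a log2 fold change of -0.48 (SE 0.14, adjusted p = 0.0116). Its call was lost with no filter on low counts (adjusted p = 0.0656) and in the tumors whose IP libraries the study kept (adjusted p = 0.188).

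Cxcl14, a ligand found in epithelium and stroma, also fell. In input, Cxcl14 was at 32.7, 53.1, 42.7, 46.7 and 46.5 CPM in control IgG tumors 1 to 5 and at 34.5, 35.9, 55.9, 33.6 and 66.1 CPM in 6-3-A6 tumors 1 to 5. The same tumors gave 19.7, 31.5, 22.0, 39.2 and 26.7 CPM and 20.04, 30.4, 27.7, 27.2 and 30.1 CPM in IP. Each tumor had less in IP than in input, although the ranges overlapped. Cxcl14 thus fell (log2 fold change -0.71, SE 0.15, adjusted p = 0.000891). Ccl25, the thymic and gut ligand of Ccr9, fell as well. In input, Ccl25 was at 15.8, 14.6, 9.13, 14.2 and 12.4 CPM in control IgG tumors 1 to 5 and at 16.2, 15.8, 12.6, 19.97 and 10.2 CPM in 6-3-A6 tumors 1 to 5. In IP it was at 10.1, 7.66, 3.57, 13.0 and 10.5 CPM and at 8.41, 4.02, 7.55, 5.27 and 8.06 CPM. IP was lower in all 10 tumors, least so in control IgG tumor 4. For IP against input this was a log2 fold change of -0.87 (SE 0.21, adjusted p = 0.00231).

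Ccl27a, a skin ligand of Ccr10, and Cxcl13, which draws B cells into follicles through Cxcr5, were among the largest falls at low levels. In input, Ccl27a was at 3.06, 4.24, 2.13, 2.49 and 1.80 CPM in control IgG tumors 1 to 5 and at 2.04, 2.26, 2.31, 4.41 and 4.42 CPM in 6-3-A6 tumors 1 to 5. The IP values of these tumors were 1.87, 0.851, 0.824, 1.70 and 1.73 CPM and 0.935, 0.609, 0.721, 0.843 and 0.565 CPM. IP was lower in all 10 tumors, though hardly so in control IgG tumor 5, and the ranges overlapped. The estimate was a log2 fold change of -1.50 (SE 0.27, adjusted p = 0.00014). In input, Cxcl13 was at 0, 0.508, 1.02, 1.41 and 2.05 CPM in control IgG tumors 1 to 5 and at 0.510, 1.29, 1.01, 3.26 and 1.77 CPM in 6-3-A6 tumors 1 to 5. Their IP libraries had 0, 0.403, 0.275, 0.442 and 0.943 CPM and 0.526, 0.670, 0.382, 0.474 and 0.462 CPM. Both fractions of control IgG tumor 1 were at 0, which allows up to 0.155 CPM in input and 0.184 CPM in IP (3 counts), 6-3-A6 tumor 1 had slightly more in IP, and the ranges overlapped. The fall was a log2 fold change of -1.42 (SE 0.50, adjusted p = 0.0270), and the call was lost without control IgG tumor 3 or 4 or 6-3-A6 tumor 3, 4 or 5, each alone, at adjusted p between 0.0517 and 0.0709. With the tumor as a block Cxcl13 was called lower (log2 fold change -1.36, SE 0.29, adjusted p = 0.00183).

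The membrane-anchored ligands Cx3cl1 (fractalkine) and Cxcl16 are held on the cell surface until Adam10 and Adam17 cut them off, and Cx3cl1 is known as an adhesion molecule of activated endothelium for monocytes and NK cells that carry Cx3cr1. Both were called lower in IP. In input, Cx3cl1 was at 173, 220.4, 300.1, 226 and 297 CPM in control IgG tumors 1 to 5 and at 193, 192, 127, 73.8 and 237 CPM in 6-3-A6 tumors 1 to 5. The same tumors gave 91.0, 156, 106, 157 and 136 CPM and 68.8, 109, 66.0, 51.4 and 101 CPM in IP. In all 10 tumors IP was lower, and the highest IP values lay within the range of input. The test gave a log2 fold change of -0.99 (SE 0.19, adjusted p = 0.00031). In input, Cxcl16 was at 250.4, 199.5, 157, 148 and 200.02 CPM in control IgG tumors 1 to 5 and at 138, 114, 192, 119 and 318 CPM in 6-3-A6 tumors 1 to 5. In IP it was at 137, 121, 86.0, 154 and 135 CPM and at 77.9, 81.2, 84.9, 91.2 and 184 CPM. Control IgG tumor 4 was again the exception with slightly more in IP. Cxcl16 thus fell (log2 fold change -0.68, SE 0.20, adjusted p = 0.00910), with 9.2% of the Cxcl16 span shared with another gene.

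The monocyte attractants Ccl7, Ccl8 and Ccl12 lie in 1 cluster on chromosome 11 and act through Ccr2 and related receptors. Ccl12 fell most of the 3 in IP. In input, Ccl12 was at 95.1, 67.6, 35.9, 72.5 and 50.2 CPM in control IgG tumors 1 to 5 and at 22.3, 41.7, 17.3, 177 and 183 CPM in 6-3-A6 tumors 1 to 5. The IP values of these tumors were 48.2, 26.4, 15.9, 47.6 and 20.9 CPM and 10.2, 21.1, 7.25, 22.8 and 68.7 CPM. Input of 6-3-A6 tumors 4 and 5 stood far above the others, and IP of 6-3-A6 tumor 5 was the highest of its fraction. For IP against input this was a log2 fold change of -1.39 (SE 0.44, adjusted p = 0.0164), and without 6-3-A6 tumor 4 the adjusted p was 0.0534. Ccl7 fell too (log2 fold change -1.004, SE 0.38, adjusted p = 0.0387), from a median of 76.2 CPM in input to 32.6 CPM in IP. The call of Ccl7 was lost without control IgG tumor 1, 2, 3 or 5 or 6-3-A6 tumor 1, 2 or 4, each alone, at adjusted p between 0.0517 and 0.0727. These fits did not pair the fractions. With the tumor as a block Ccl7 (log2 fold change -1.06, SE 0.12, adjusted p = 6.78e-06) and Ccl12 (-1.30, SE 0.17, adjusted p = 3.74e-05) were both called lower. Both were lower in IP in all 10 tumors. Ccl8 did not pass the test (log2 fold change -0.95, SE 0.50, adjusted p = 0.127) except with the tumor as a block and in 2 other alternatives.

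The inflammatory CC ligands Ccl3, Ccl4, Ccl5, Ccl6 and Ccl9 attract monocytes, macrophages and T cells. Without a block they included the largest fall, that of Ccl5. With the tumor as a block Ccl27a fell most (log2 fold change -1.47), and Ccl5 had a log2 fold change of -1.30. The 4 that were tested of 5 were all called lower, with a median of -1.40 without the block. Ccl5 is made by T cells, NK cells and activated myeloid cells. In input, Ccl5 was at 12.8, 15.5, 13.8, 14.9 and 18.9 CPM in control IgG tumors 1 to 5 and at 12.5, 9.96, 13.0, 5.88 and 89.4 CPM in 6-3-A6 tumors 1 to 5. Their IP libraries had 12.7, 3.72, 4.56, 6.37 and 6.60 CPM and 3.62, 3.83, 6.41, 8.69 and 13.8 CPM. The input library of 6-3-A6 tumor 5 was far above the rest, while its IP was close to the highest control IgG value. 6-3-A6 tumor 4 was the single tumor with more in IP. The estimate was a log2 fold change of -1.51 (SE 0.41, adjusted p = 0.00557), and without 6-3-A6 tumor 5 it was a log2 fold change of -1.04 (adjusted p = 0.00156). Ccl4, a macrophage and T cell product, fell in the same comparison. In input, Ccl4 was at 2.23, 4.32, 5.72, 3.45 and 3.21 CPM in control IgG tumors 1 to 5 and at 5.10, 2.82, 3.49, 2.42 and 15.7 CPM in 6-3-A6 tumors 1 to 5. The same tumors gave 1.21, 1.93, 1.43, 2.78 and 1.14 CPM and 2.57, 0.913, 1.19, 0.790 and 3.70 CPM in IP. IP was lower in all 10 tumors. The fall was a log2 fold change of -1.43 (SE 0.36, adjusted p = 0.00322). Ccl3 (log2 fold change -1.37, SE 0.31, adjusted p = 0.00143), of whose span 56.4% is shared with another gene, and the abundant myeloid ligand Ccl9 (log2 fold change -1.24, SE 0.16, adjusted p = 2.74e-06) completed the group. Ccl9 went from 285 to 572 CPM in input (median 396) to 122 to 325 CPM in IP (median 168).

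Ligands of Ccr3, Ccr4 and Ccr8 recruit eosinophils, regulatory T cells and type 2 helper cells, and the 4 tested of 6 were called lower, with a median of -1.21. Ccl22, which is made by dendritic cells and macrophages, had the most counts of the 4. In input, Ccl22 was at 12.6, 21.8, 20.6, 31.3 and 47.6 CPM in control IgG tumors 1 to 5 and at 17.6, 11.1, 22.9, 17.7 and 13.9 CPM in 6-3-A6 tumors 1 to 5. In IP it was at 5.61, 9.76, 8.405, 16.8 and 18.0 CPM and at 4.91, 3.77, 7.21, 7.38 and 6.88 CPM. All 10 tumors had less in IP. The test gave a log2 fold change of -1.33 (SE 0.24, adjusted p = 0.000157). Ccl24, an eosinophil attractant, was at a few CPM or less. In input, Ccl24 was at 6.02, 3.90, 2.22, 2.09 and 1.09 CPM in control IgG tumors 1 to 5 and at 1.42, 1.74, 1.52, 1.89 and 1.45 CPM in 6-3-A6 tumors 1 to 5. The IP values of these tumors were 3.07, 1.79, 0.549, 1.96 and 0.707 CPM and 0.818, 0.913, 0.509, 0.579 and 0.719 CPM. Control IgG tumors 1 and 2 were the highest in input, and IP was lower in all 10 tumors. Ccl24 thus fell (log2 fold change -1.05, SE 0.31, adjusted p = 0.00998). Ccl17, which shares Ccr4 with Ccl22, fell (log2 fold change -1.28, SE 0.31, adjusted p = 0.00264), as did the eotaxin Ccl11 (log2 fold change -1.15, SE 0.36, adjusted p = 0.0161).

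The neutrophil attractants Cxcl1, Cxcl2 and Cxcl3 sit in 1 cluster on chromosome 5 with Ppbp and the platelet factor Pf4. Pf4 is made by megakaryocytes and platelets and by some macrophages. In input, Pf4 was at 64.8, 78.0, 95.6, 81.3 and 49.0 CPM in control IgG tumors 1 to 5 and at 91.0, 56.1, 70.2, 86.8 and 96.0 CPM in 6-3-A6 tumors 1 to 5. Their IP libraries had 43.3, 35.6, 57.7, 52.4 and 26.0 CPM and 50.5, 38.0, 33.8, 41.5 and 38.5 CPM. Input was the higher fraction in all 10 tumors. For IP against input this was a log2 fold change of -0.89 (SE 0.15, adjusted p = 9.31e-05). Of the platelet and megakaryocyte markers 2 could be tested and 0 were called, at a median log2 fold change of 0.06. Cxcl1 (log2 fold change -1.19, SE 0.45, adjusted p = 0.0380) and Cxcl2 (log2 fold change -1.32, SE 0.52, adjusted p = 0.0458) were called lower, with input values from 8.91 to 69.4 CPM and from 1.62 to 43.8 CPM. Both calls were lost without control IgG tumor 3, at adjusted p = 0.123 and 0.101, and without several other tumors. With the tumor as a block Cxcl1 (log2 fold change -1.18, adjusted p = 0.00511) and Cxcl2 (-1.12, adjusted p = 0.00595) were called lower. Cxcl3 (log2 fold change -1.11, SE 0.56, adjusted p = 0.118) and Ppbp (log2 fold change -1.02, SE 0.45, adjusted p = 0.0755) were not called.

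Among ligands that were too low for the comparison, Ccl28, a mucosal and epithelial ligand of Ccr10 and Ccr3, had the opposite pattern. It had 87 counts in the 10 IP libraries and 20 in the 10 input libraries, between 5 and 14 in each IP library and between 0 and 4 in each input library. With no filter on low counts, a fit that called 17.9% of all genes, it was called higher in IP (log2 fold change 1.83, SE 0.48, adjusted p = 0.00645), and it was higher in 9 of 10 tumors. This gene was singled out after its values were seen, at a level of 0.449 CPM ± 0.167 in IP (SD, n = 10) and 0.136 ± 0.0941 in input. Ccl1 had 192 counts over a span of 129034 bases, where RefSeq gives 3147 bases, so that its counts need not be its own. Cxcl5, a neutrophil-attracting ligand of Cxcr2, had 113 counts in 19 libraries and with no filter a log2 fold change of -0.81, SE 0.52, adjusted p = 0.287. Cxcl15 had 97 counts in 12 libraries, where the log2 fold change was -0.23, SE 0.77, adjusted p = 0.860. Ccl20 had 8 counts and Ccl26 had 5 over the 20 libraries.

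Other genes of the chemokine system moved in both directions. Of 12 tested G protein-coupled chemokine receptors, 9 were called lower in IP and the median of the 12 was -1.03 on the log2 scale. Those lower include Xcr1 (log2 fold change -1.62, adjusted p = 0.00306) and Ccr7 (log2 fold change -1.36, adjusted p = 0.000288). Cxcr4, the receptor of Cxcl12, was the 1 called higher (log2 fold change 1.54, adjusted p = 0.000133). Of 4 tested atypical receptors, 3 were called higher and 0 lower. They were Ackr2, a scavenger of inflammatory CC chemokines (log2 fold change 4.04, adjusted p = 5.92e-09), Ackr1, which carries chemokines across venules (log2 fold change 3.23, adjusted p = 6.53e-06), and Ackr3, which takes up Cxcl12 (log2 fold change 0.47, adjusted p = 0.0347). Ackr2 rose from a mean of 0.763 CPM ± 0.314 to 13.1 ± 9.24 in control IgG tumors and from 0.946 ± 0.296 to 15.2 ± 7.71 in 6-3-A6 tumors (SD, n = 5 each), with no overlap.

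Of the enzymes that cut chemokines, Dpp4 was called lower (log2 fold change -0.97, adjusted p = 0.0115), Adam10 higher (log2 fold change 0.45, adjusted p = 0.0442) and Adam17 was not called. Of 12 heparan sulfate genes, 5 were called lower and Ext2, which builds the chain, was called higher (log2 fold change 1.36, adjusted p = 0.00158). The core proteins Sdc4 (log2 fold change -1.14, adjusted p = 6.71e-05) and Gpc1 (log2 fold change -0.93, adjusted p = 0.00395) were the largest falls. Of 8 NF-kappaB genes, 3 were called higher, with the inhibitor Nfkbia (log2 fold change 1.06, adjusted p = 0.0120) first, then Nfkb2 (log2 fold change 0.50, adjusted p = 0.0463) and Rela (log2 fold change 0.44, adjusted p = 0.0192).

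The 6 IP libraries that entered the study's own comparison set 6-3-A6 beside control IgG in RNA enriched for tagged ribosomes. Macrophage RNA was still measured there, so that a difference need not be one of endothelial ribosomes. In these libraries 18 of 24 ligands had a lower estimate with 6-3-A6. Called lower were 3 of 24, that is 12.5%, and none was called higher. Of all 13999 genes tested 2.04% were called lower and 2.57% higher. The 3 ligands called lower were Cx3cl1, Ccl22 and Ccl8. The median log2 fold change over the ligands was -0.48, against -0.05 over all genes tested, and 8 had an unadjusted p under 0.05, all of them lower, where 19.5% of all genes tested had one. That median was -0.22 without control IgG IP 4, -0.31 with voom and 0.51 with the endothelial score as a covariate. Since the 6 libraries were chosen by expression values that separated the treatments, these p-values do not cover that choice, and over all 10 IP libraries 0 genes were called. In level, 6 ligands were lower in 6-3-A6 without overlap where 10.7% of all genes tested were, and 0 were higher without overlap, where 13.6% of all genes were.

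Cx3cl1 was at 156, 157 and 136 CPM in control IgG IP 2, 4 and 5 and at 68.8, 66.0 and 51.4 CPM in 6-3-A6 IP 1, 3 and 4. The groups were far apart, at a log2 fold change of -1.30 (SE 0.19, adjusted p = 0.0174). Ccl22 was at 9.76, 16.8 and 18.0 CPM in control IgG IP 2, 4 and 5 and at 4.91, 7.21 and 7.38 CPM in 6-3-A6 IP 1, 3 and 4. The difference was a log2 fold change of -1.22 (SE 0.28, adjusted p = 0.0361). Ccl8 was at 31.6, 41.0 and 22.4 CPM in control IgG IP 2, 4 and 5 and at 9.06, 11.6 and 18.9 CPM in 6-3-A6 IP 1, 3 and 4. The groups did not overlap, at a log2 fold change of -1.29 (SE 0.30, adjusted p = 0.0380). Ccl7 (log2 fold change -1.45, SE 0.38, adjusted p = 0.0545), Cxcl16 (log2 fold change -0.72, SE 0.19, adjusted p = 0.0527) and Ccl11 (log2 fold change -1.34, SE 0.36, adjusted p = 0.0618) did not overlap between the groups and missed the threshold. Cxcl12 differed by a log2 fold change of 0.041 (SE 0.27, adjusted p = 0.954), with an interval of -0.56 to 0.64, and Cxcl9 by a log2 fold change of -0.78 (SE 0.36, adjusted p = 0.260), with an interval of -1.57 to 0.0054.

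In the same 6 libraries the endothelial score was between 0.0099 and 1.29 in control IgG and between 2.79 and 2.91 in 6-3-A6, so that the groups did not overlap. The 4 libraries left out ran the other way, with 2.37 and 3.37 in control IgG IP 1 and 3 and 0.26 and 1.61 in 6-3-A6 IP 2 and 5, and over all 10 the median log2 fold change of the endothelial markers was 0.04. Macrophage markers summed to between 3986 and 4944 CPM in control IgG and to between 2031 and 2465 CPM in 6-3-A6, and 6 of 13 were called lower, none at 0, while 6 of 17 endothelial markers were called higher. Of 7 dendritic cell markers 2 were called lower, as were 2 of 10 fibroblast markers, 2 of 6 epithelial markers (median -0.98) and 1 of 7 mural markers (median -0.82). The part of this difference in the fall of Cx3cl1, Ccl22 and Ccl8 was not tested. With the score as a covariate 0 ligands and 0 of 13999 genes were called, against 646 genes without it, at log2 fold changes of -1.19 (adjusted p = 0.931) for Cx3cl1, -0.41 (adjusted p = 0.966) for Ccl22 and -0.45 (adjusted p = 0.959) for Ccl8. In that fit 16 of the 24 ligands were higher with 6-3-A6 and 8 lower, against 6 and 18 without the covariate, since 10 ligands turned from lower to higher, and the median over all genes was -0.07. The standard errors of the ligands were between 0.54 and 1.91 there, and Cxcl3 alone had an unadjusted p under 0.05 (log2 fold change 5.74, SE 1.70, unadjusted p = 0.0071). Without 6-3-A6 IP 3, 0 ligands and 9 of 14141 genes were called, and the adjusted p of Cx3cl1 was 0.0602. Without control IgG IP 4 or 6-3-A6 IP 1, Cx3cl1 was the 1 ligand still called, where 1.29% and 2.38% of all genes were called. Ccl22 was lost as well without control IgG IP 5 or 6-3-A6 IP 4 (adjusted p = 0.0826 and 0.0843), and Ccl8 without control IgG IP 2 (adjusted p = 0.0704).

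The receptors Ccr2 (log2 fold change -1.17, adjusted p = 0.0249) and Ccr1 (log2 fold change -0.94, adjusted p = 0.0422) of monocytes were called lower as well, 2 of 10 tested, and the atypical receptor Ackr2 was called higher (log2 fold change 1.41, adjusted p = 0.0337), 1 of 4. None of the enzymes, heparan sulfate, NF-kappaB or interferon-gamma genes was called in these libraries.

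Over all 10 IP libraries 0 ligands were called by edgeR, DESeq2 or limma voom, and edgeR called 0% of all 13602 genes tested. An unadjusted p under 0.05 was found for 6 of 23 ligands, 26.1%, where 2.15% of all genes tested had one, and all 6 were lower in 6-3-A6. They were Ccl22 (log2 fold change -0.97, SE 0.33, unadjusted p = 0.0112, adjusted p = 1.00), Cx3cl1 (log2 fold change -0.71, SE 0.24, unadjusted p = 0.0117, adjusted p = 1.00), Ccl27a (log2 fold change -0.93, SE 0.33, unadjusted p = 0.0146, adjusted p = 1.00), Ccl24 (log2 fold change -1.19, SE 0.45, unadjusted p = 0.0213, adjusted p = 1.00), Ccl17 (log2 fold change -1.17, SE 0.46, unadjusted p = 0.0238, adjusted p = 1.00) and Ccl9 (log2 fold change -0.50, SE 0.21, unadjusted p = 0.0354, adjusted p = 1.00). The values printed above for Ccl22, Cx3cl1, Ccl27a and Ccl24 overlap between the treatment groups in each case. For Ccl27a, IP of control IgG tumors 2 and 3 lay within the range of 6-3-A6, and for Cx3cl1 the overlap came from control IgG tumors 1 and 3 and 6-3-A6 tumors 2 and 5. The count of 6 was 3 without control IgG IP 1 and 4 without control IgG IP 4 or 6-3-A6 IP 2, where 2.64%, 0.991% and 2.78% of all genes tested had such a p. With voom it was 9, where 19.5% of all genes tested had such a p. Without 6-3-A6 IP 5, the library with most macrophage and lymphoid RNA, 11 ligands and 7.198% of all genes tested had an unadjusted p under 0.05 and 0 were called. Without 6-3-A6 IP 2 and 5 and control IgG IP 4, 0 were called as well.

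In input 0 ligands were called by the same 3 tools, and edgeR called 0% of all 13683 genes tested. Ccl24 (log2 fold change -0.95, SE 0.41, unadjusted p = 0.0405, adjusted p = 1.00) and Ccl22 (log2 fold change -0.71, SE 0.32, unadjusted p = 0.0487, adjusted p = 1.00) had an unadjusted p under 0.05, 8.33% of 24 ligands, where 1.32% of all genes tested had one. The count of 2 was 0 without control IgG input 2, 6-3-A6 input 1 or 6-3-A6 input 2, where 1.096%, 2.45% and 2.64% of all genes had such a p. It was 1 without control IgG input 4, 6-3-A6 input 3 or 6-3-A6 input 4, beside 0.602%, 1.54% and 0.958% of all genes. It was 3 without control IgG input 3 and 4 without 6-3-A6 input 5, beside 1.52% and 4.02%. Cx3cl1 differed by a log2 fold change of -0.57 (SE 0.29, unadjusted p = 0.0663, adjusted p = 1.00), with an interval of -1.19 to 0.045. The median log2 fold change over the ligands was 0.06, and -0.12 without 6-3-A6 input 5. Both IP comparisons share libraries, and input came from the same tumors as IP, so that the comparisons are not independent.

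**Figure D5:**
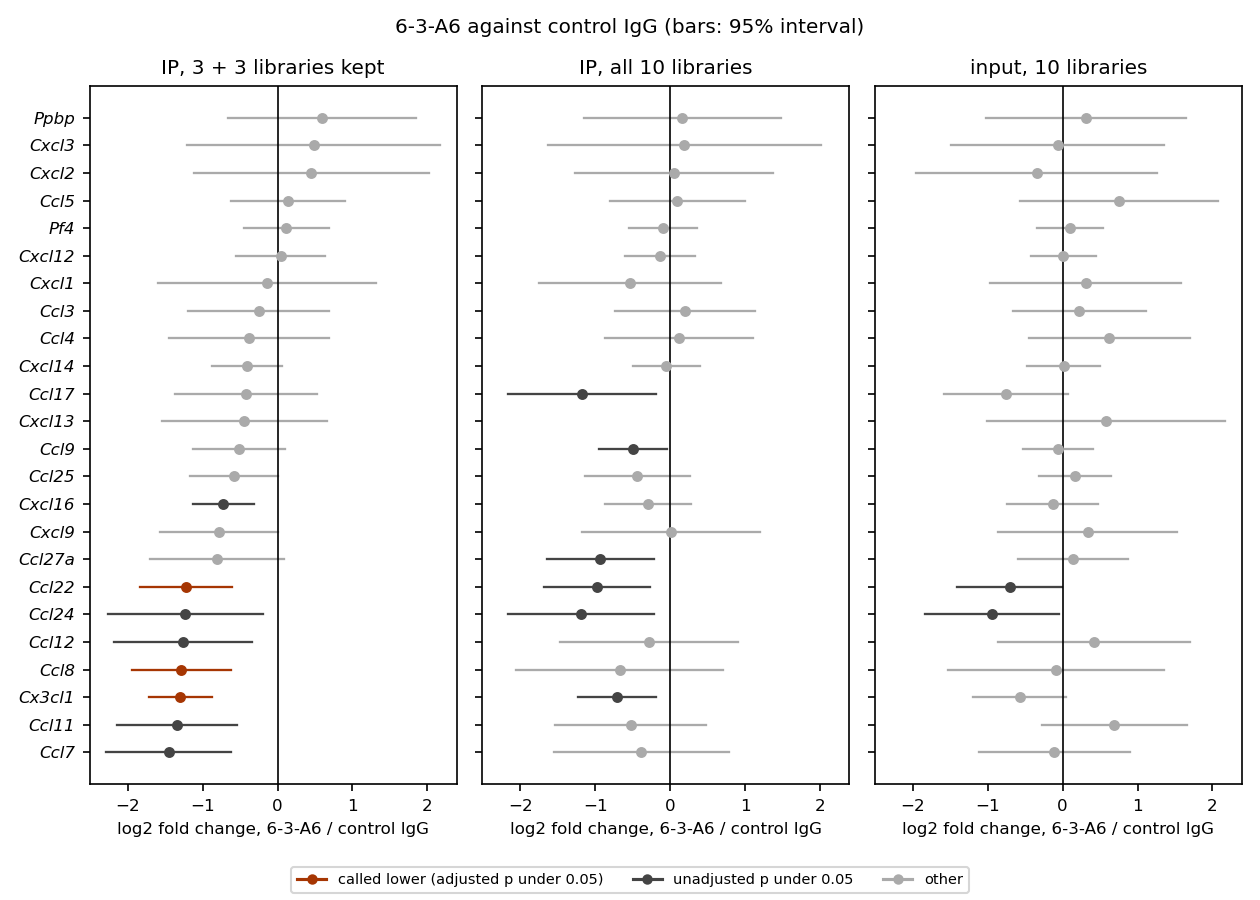
Log2 fold change of 6-3-A6 over control IgG with its 95% interval for each tested ligand, in the 6 kept IP libraries (left), in all 10 IP libraries (middle) and in input (right). Brown marks the 3 ligands called lower, dark gray an unadjusted p under 0.05, and Cxcl13 was not tested over the 10 IP libraries.

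Whether the treatment difference itself differed between IP and input was tested as an interaction, in which edgeR called 0 of 25 ligands and 0% of all 14488 genes tested, and DESeq2 and limma voom called 0 ligands. Ccl27a alone had an unadjusted p under 0.05 (log2 difference -1.08, SE 0.48, unadjusted p = 0.0343, adjusted p = 1.00), 4.00% of the ligands, where 0.863% of all genes tested had one. No ligand had one without control IgG tumor 1, 4 or 5 or 6-3-A6 tumor 4 or 5, where between 0.286% and 2.48% of all genes did. With voom 1 ligand and 7.06% of all genes had one, and with no filter 0 ligands and 3.67% of all genes. With the tumor as a block 0 ligands were called either, Ccl27a had an unadjusted p of 0.0586 and Ccl11 one of 0.0170 (log2 difference -1.04, SE 0.38, adjusted p = 1.00). The interaction was a log2 difference of -0.27 (SE 0.47, unadjusted p = 0.579, adjusted p = 1.00) for Ccl22, with an interval of -1.25 to 0.72, and a log2 difference of -0.14 (SE 0.38, unadjusted p = 0.721, adjusted p = 1.00) for Cx3cl1, with an interval of -0.93 to 0.66. With the block they were -0.28 (SE 0.21, unadjusted p = 0.198) and -0.083 (SE 0.24, unadjusted p = 0.739).

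Tumor 5 of the 6-3-A6 group stood apart in several ligands. In its input Ccl8 was at 199.7 CPM where the other 4 were between 20.9 and 26.0, Ccl5 at 89.4 CPM where the others were between 5.88 and 13.0, Ccl7 at 248 CPM where the others were between 35.8 and 77.7, and Cxcl9 at 1164 CPM where the others were between 89.1 and 268. Its lymphoid markers summed to 276 CPM in input and 149 CPM in IP, against at most 117 and 38.1 CPM in any other library, and its macrophage markers to 9141 and 5939 CPM. The part of these cells in its chemokine levels was not tested. Without this tumor, 19 ligands were called lower in IP than in input and none higher, where 39.7% of all genes were called in either direction.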

How the data were processed

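RNA of 10 tumors, in input and IP, gave 20 libraries. The deposited table holds raw read counts per gene, by the paper made with STAR 2.7.4a and featureCounts 2.0.1 on mm10 (GRCm38). The labels also name featureCounts 1.5.2 and GRCh38. Of the chemokine gene starts in the table, 3 of 41 equal those of RefSeq GRCm38, so that mm10 cannot be taken as the build of its gene coordinates. The deposited normalized values (signal, counts divided by DESeq2 size factors) were used only to check which libraries the study kept. The authors' fold change and p-value columns were not used. Strand setting and the handling of reads on several genes are not given in the sources used here.

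Counts were tested with edgeR 4.0.16 (TMM, quasi-likelihood, Benjamini-Hochberg adjustment over all genes tested, R 4.3.3) after its filter on low counts, and with limma 3.58.1 (voom) and DESeq2 1.42.0 as alternatives. Log2 CPM per tumor used a prior count of 2. Values in every library are given for the 5 called ligands with the largest and the 5 with the smallest log2 fold changes of IP over input, the 4 with the smallest treatment p in 10 IP libraries or input (Ccl27a is in both), and Cxcl9, and from other lists the called genes with the 3 largest changes. The members and lists were chosen with earlier results of these data known. Input and IP of 1 number came from the same tumor, and their deviations from the group means correlated between -0.08 and 0.70 (median 0.38). Replicates were tumors, and no 2 libraries of the same group agreed within sampling noise. Gene coordinates of the table are not printed, since 3 of 41 chemokine gene starts equal those of RefSeq GRCm38. Some genes of the lists are not reported here by name.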

Additional observations from a re-analysis of the deposited data

Results flagged for a closer look

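In groups of 5 libraries, a value whose gap to its nearest neighbor was more than 0.71 of the whole range of the group on log2 CPM was found for 6 of 96 groups of tested ligands, where chance gives about 1 in 20. In input of 6-3-A6 tumor 5, Ppbp was at 0.241 CPM where the other 4 tumors were between 2.02 and 2.95, Ccl8 was at 199.7 CPM where they were between 20.9 and 26.0, and Ccl5 was at 89.4 CPM where they were between 5.88 and 13.0. In IP of the same tumor Cxcl16 was at 184 CPM where the others were between 77.9 and 91.2. Ccl11 was at 0.714 CPM in IP of control IgG tumor 3, below a range of 2.59 to 3.15. Cxcl14 was at 20.04 CPM in IP of 6-3-A6 tumor 1, below a range of 27.2 to 30.4. On CPM in place of log2 CPM, a scale added after the data were seen, 15 of the 96 groups passed the same limit, 6 of them through input and 5 through IP of 6-3-A6 tumor 5, Cxcl9 and Ccl7 in both fractions among them.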

How the results depend on the processing

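In IP against input, 13 of the 20 called ligands were called under all 18 alternatives and 7 lost the call under at least 1. The count of ligands called lower was between 15 and 19 when each tumor was left out, and 20 with DESeq2, 22 with voom and 17 with no filter. Beside them 34.4% to 42.0%, 44.0%, 51.6% and 17.9% of all genes tested were called in either direction, against 40.8% with no change. With no filter 1 ligand, Ccl28, was called higher. With the tumor as a replicate block 23 were called lower and 1 higher, Cxcl9, as were 51.6% of all genes in either direction, and the interaction had 0 calls. Ccl24 lost its call in the tumors whose IP libraries the study kept (adjusted p = 0.067). In these kept IP libraries, the 3 ligands called lower with 6-3-A6 became 7 with DESeq2, 7 with no filter (1 of them Cxcl15, at 97 counts over the 20 libraries), 8 with voom and 0 with the endothelial score as a covariate, and between 0 and 4 when each library was left out. The calls over all genes moved with them, from 646 (4.61% of the genes tested) to 1251 (8.94%) with DESeq2, 1459 (5.44%) with no filter, 1879 (13.4%) with voom and 0 with the covariate. When each library was left out, between 0.064% and 4.61% of all genes tested were called. Under that covariate 10 of the 24 ligands turned from lower to higher, among them Ccl7 (log2 fold change 0.20) and Ccl12 (0.46). The cause was not tested. Across the treatments, libraries of the same replicate number share only a number, with correlations of -0.19 to 0.37 in IP and -0.33 to 0.24 in input, and a fit with the number as a replicate block gave 0 calls in 10 IP libraries and in input. Fold changes of ligands with too few counts for the test of IP against input come from the fit with no filter and rest on few counts. The zeros of the 9 enclosed genes cannot be read as levels.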
